A study of Arabidopsis thaliana with 4 samples.

Results

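The 76 probe sets numbered 250400 to 250475 on the Affymetrix ATH1 array were taken as the block next to FLC on chromosome 5. They were taken by number alone, whatever their suffix, from 22746 probe sets other than controls. A platform annotation gave a single locus to 33 of them, several loci to 2 and none to 41. The 33 loci all lay on chromosome 5, between the gene 33 places before FLC (AT5G09850) and the gene 114 places after it (AT5G11250), counted over protein-coding genes in the TAIR10.1 gene table. The placed members therefore span a neighbourhood of 148 genes rather than the immediate neighbours of FLC. Of these 33, 6 lay within 10 genes of it, and no member is annotated to FLC itself (AT5G10140). The places of the 41 members with no locus are not known from this annotation. The values name no genome build, so places in gene order are given and no coordinates.

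The mutant flc-3, labelled as a knockout of AT5G10140, was profiled on 2 arrays and the wild type, labelled FRI; FLC, on 2 arrays, both in the Col-0 background and both as whole seedlings at developmental stage 1.02. The array titles spell the mutant's FRI in lower case, which leaves the allele it carries at that locus unclear, and no label says that the replicates came from separate cultures. Seedlings grew at 22 °C, first for 6 days under constant light and then for 4 days under a day of 12 h and a night of 12 h, and were then moved to constant light at 27 °C. Each array carried pooled RNA of 24, 30, 36 and 42 h after that move, so each value is an average over a circadian cycle.

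FLC encodes a MADS-box transcription factor that represses flowering, and FRI raises its transcription. Prolonged cold silences FLC through Polycomb-type chromatin marks, and the genes on either side, named UFC (AT5G10150) and DFC (AT5G10130), are known to be silenced with it. A mutant chromosome can also carry changes close to the mutated gene, so the neighbours of FLC are a natural place to ask whether transcripts differ along the chromosome.

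Most transcripts of the block differed little between flc-3 and the wild type. AT5G10740, a gene of the protein phosphatase 2C family, rose 2.00-fold in flc-3, and AT5G10120, a gene of the EIN3 family of ethylene-response transcription factors, rose 1.64-fold. No member fell at an adjusted p of 0.05 in limma (Benjamini-Hochberg over all tested probe sets), and the lowest difference was -0.45 on the log2 scale, for the unnamed 250471_at. Differences are flc-3 minus wild type on the scale log2(signal + 1), where signal is the MAS5 intensity, and each is given with the standard error of the limma fit.

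Of the 76 members, 56 lay above a filter on dim probe sets (the 40th percentile of the mean log2 signal, equal to a signal of 30.8) and were tested, and 20 lay below it. Of the 56, 2 passed, both higher in flc-3. That is 3.57% of the tested members, where 1.69% of all 13648 tested probe sets passed, 1.37% higher and 0.315% lower in flc-3. The block was drawn with these 2 calls known, and 1 of them, 250400_at, is its first number, so the count is a description. With no probe set filtered out, 1 of 76 members passed (AT5G10740, 1.32%), against 0.532% of all 22746 probe sets.

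The signal of AT5G10740 (250400_at) was 81.8 and 79.1 in the flc-3 arrays, against 41.2 and 38.3 in the wild-type arrays. The arrays of a genotype lay close together and the genotypes did not overlap. The means were 80.4 ± 1.92 in flc-3 and 39.7 ± 2.05 in the wild type (SD, n = 2 arrays each). The log2 difference was 1.00 ± 0.15 (SE, 95% interval 0.67 to 1.34, limma adjusted p = 0.0075). The call was lost without flc-3 replicate 1 (difference 0.98, limma adjusted p = 0.0688), while the difference stayed between 0.95 and 1.05 whichever array was left out.

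The signal of AT5G10120 (250468_at) was 320 and 301 in the flc-3 arrays, against 213 and 168 in the wild-type arrays. The lower flc-3 array stood above the higher wild-type array, and the wild-type arrays were further apart than those of flc-3. The means were 310 ± 13.4 in flc-3 and 190 ± 32.3 in the wild type (SD, n = 2 arrays each). The log2 difference was 0.71 ± 0.13 (SE, 95% interval 0.42 to 1.00, limma adjusted p = 0.0215). This call was lost without flc-3 replicate 1 (limma adjusted p = 0.158), without flc-3 replicate 2 (0.0783), in the fit of all probe sets with none filtered out (0.114) and without the intensity trend (0.0935). With 2 arrays against 2, an exact permutation test cannot go below p = 0.333, so both calls rest on the spread that limma shares between probe sets.

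**Figure D1:**
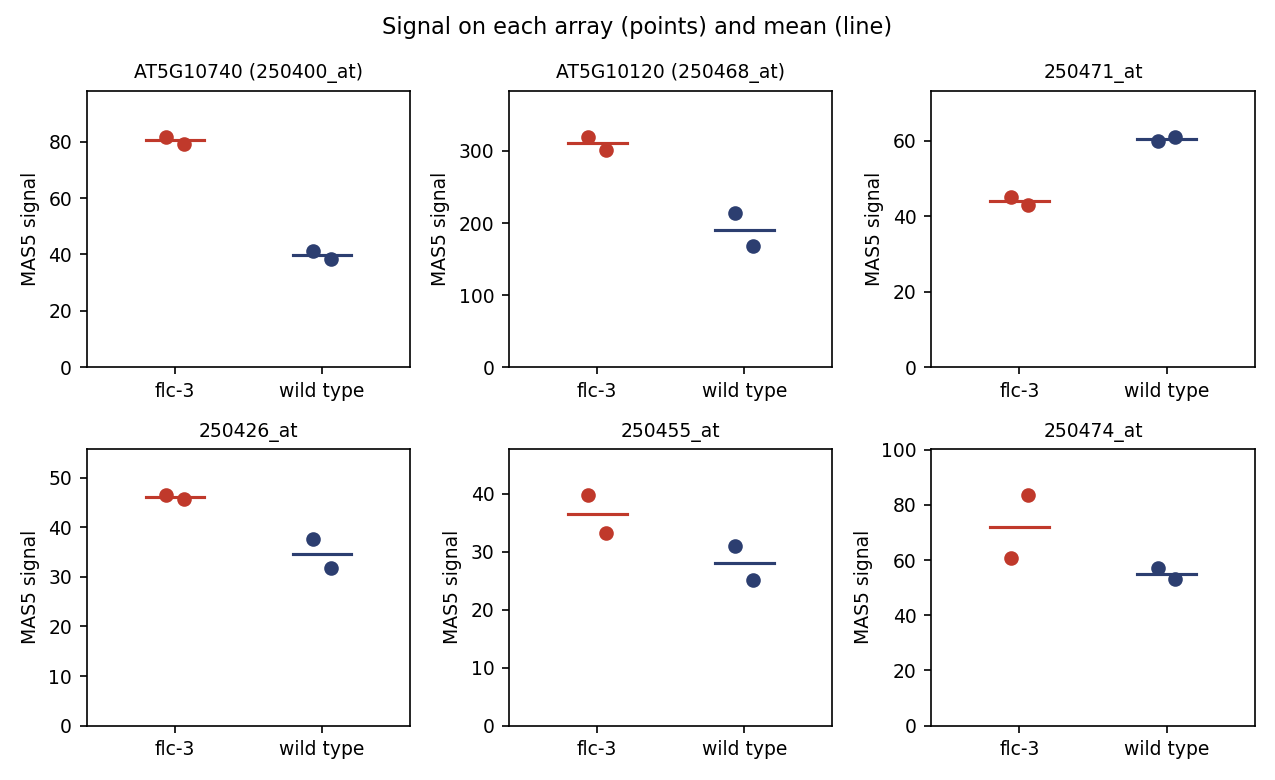
MAS5 signal on each array (points) and mean (line) for the 6 tested members with the largest differences, with flc-3 on the left of each panel and the wild type on the right, and each vertical axis starting at 0. In all 6 the genotypes do not overlap, which the choice by size of difference favours. Over all tested probe sets, 43.0% had no overlap. AT5G10740 shows 81.8 and 79.1 in flc-3 and 41.2 and 38.3 in the wild type.

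A further 4 tested members, none with a gene in the annotation, had the next largest differences and did not pass. The signal of 250471_at was 45.0 and 43.1 in flc-3, against 60.0 and 61.1 in the wild type, a log2 difference of -0.45 ± 0.15 (limma adjusted p = 0.26). The arrays of each genotype lay close together and both flc-3 arrays were below both wild-type arrays. The signal of 250426_at was 46.5 and 45.7 in flc-3, against 37.5 and 31.7 in the wild type (0.41 ± 0.17, limma adjusted p = 0.379). That of 250455_at was 39.8 and 33.3 in flc-3, against 31.0 and 25.1 in the wild type (0.37 ± 0.19, limma adjusted p = 0.493). For 250474_at, flc-3 replicate 2 stood apart, with 60.6 and 83.6 in flc-3 against 57.0 and 53.1 in the wild type (0.37 ± 0.18, limma adjusted p = 0.451).

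The members of a chromosome stretch can be followed in gene order. The closest placed members before FLC are AT5G10130 and AT5G10120, at 1 and 2 places, and the closest after it is AT5G10160, at 2 places. AT5G10130 (DFC), a gene of the pollen Ole e 1 protein family, is the only gene of the cluster UFC, FLC and DFC with an annotated probe set, and it lay below the filter. Its signal was 33.1 and 28.5 in flc-3, against 31.6 and 22.9 in the wild type, and the genotypes overlapped. In the fit with no filter its difference was 0.18 ± 0.25 (95% interval -0.41 to 0.77) whose upper end is a level 1.71-fold higher in flc-3.

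AT5G10160, a gene for a 3-hydroxyacyl-ACP dehydratase of fatty acid synthesis, had signals of 226 and 229 in flc-3, against 208 and 243 in the wild type. Both flc-3 arrays lay between the wild-type arrays, and the difference was 0.02 ± 0.11 (95% interval -0.23 to 0.27). AT5G10070, 7 places before FLC, had 110 and 111 in flc-3, against 123 and 111 in the wild type (-0.08 ± 0.12, 95% interval -0.35 to 0.19). Among placed members that were tested, AT5G10070 and AT5G10160 were the nearest on either side of AT5G10120, and their intervals held 0. AT5G10130, the gene next to AT5G10120, was not tested. Its interval in the fit with no filter, -0.41 to 0.77, held the 0.71 of AT5G10120. AT5G10040, a hypoxia-induced gene 10 places before FLC, and AT5G10210, 7 places after it, gave signals of at most 5.58 and 8.40 on any array and were not tested.

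AT5G10740 lies 63 places after FLC. AT5G10750, 2 places further on, is measured by 250399_at, the last number before the block. The signal there was 93.2 and 66.5 in flc-3, against 77.0 and 80.0 in the wild type (0.00 ± 0.17), so the wild-type arrays lay between the flc-3 arrays. AT5G10770, an aspartyl protease family gene 67 places after FLC, lay below the filter with 31.8 and 31.5 in flc-3, against 15.9 and 24.9 in the wild type (0.64 ± 0.28 in the fit with no filter, limma adjusted p = 0.523). AT5G10780, 68 places after FLC, had 351 and 376 in flc-3, against 347 and 385 in the wild type (-0.01 ± 0.11).

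**Figure D2:**
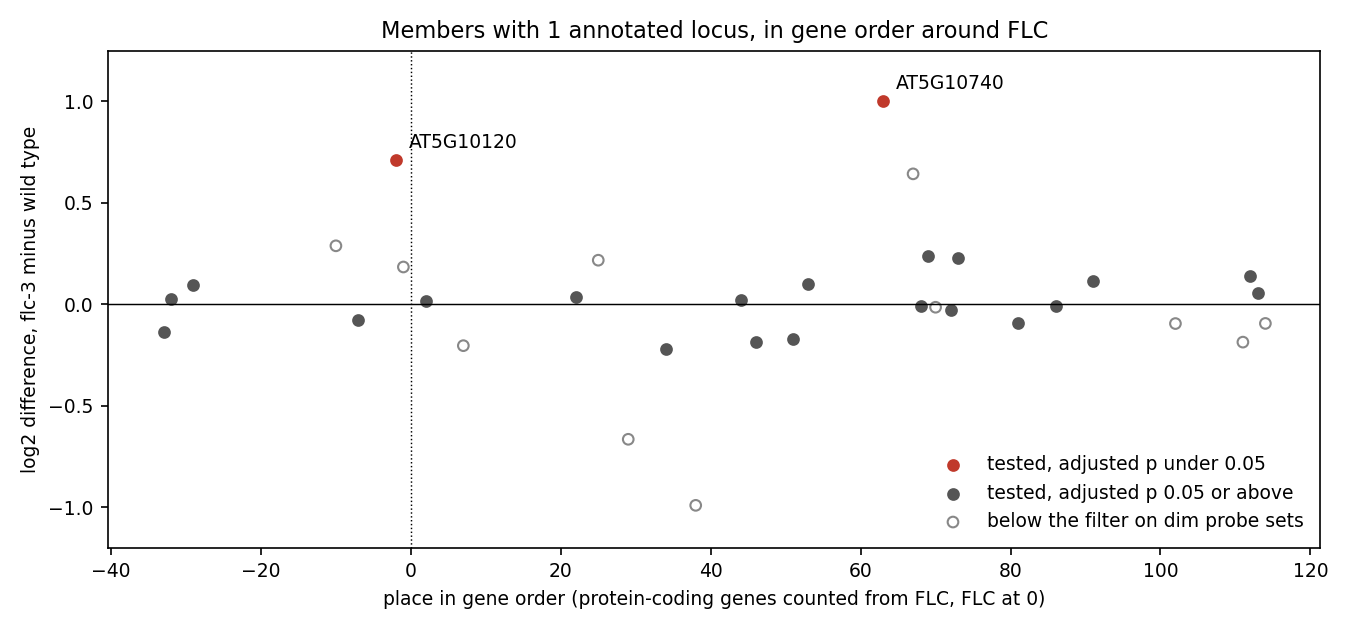
Log2 difference, flc-3 minus wild type, of the 33 members with 1 annotated locus against their place in gene order, counted in protein-coding genes from FLC (dotted line at 0). Filled points were tested (red where the adjusted p is under 0.05) and open points lay below the filter, and AT5G10120 and AT5G10740, the 2 called members, stand 65 places apart with tested members near 0 between them.

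Between AT5G10160 and AT5G10740, at 22 to 53 places after FLC, 9 members were placed and 6 of them tested, with differences from -0.22 to 0.10. AT5G10350, an RNA-binding protein gene of the nuclear poly(A)-binding type, had 154 and 151 in flc-3, against 168 and 132 in the wild type (0.03 ± 0.13). AT5G10560, a gene of the glycosyl hydrolase family that includes beta-xylosidases of the cell wall, had 178 and 159 in flc-3, against 154 and 178 in the wild type (0.02 ± 0.12). In both genes the genotypes overlapped.

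AT5G10460, at 34 places, had 58.2 and 38.5 in flc-3, against 56.5 and 54.2 in the wild type (-0.22 ± 0.20). The lowest array was flc-3 replicate 2, and without it the difference was 0.07. AT5G10580 had 270 and 233 in flc-3, against 325 and 251 in the wild type (-0.19 ± 0.14), with overlap. AT5G10620 had 46.3 and 50.8 in flc-3, against 59.6 and 50.1 in the wild type (-0.17 ± 0.16). AT5G10630, an HBS1-like translational GTPase gene, had 82.3 and 85.8 in flc-3, against 78.9 and 77.6 in the wild type (0.10 ± 0.13), and was the only 1 of these 6 whose genotypes did not overlap, where 43.0% of all tested probe sets had no overlap. The other 3 placed there lay below the filter: RING1, a RING-type ubiquitin ligase gene, with signals up to 24.6, AT5G10420, a MATE-type transporter gene, up to 13.7, and NET2C, of the actin-binding Networked family, up to 5.41.

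At 63 to 91 places after FLC, 10 members were placed and 8 tested, and in 4 of the 8 the genotypes did not overlap, AT5G10740 among them, where 43.0% of all tested probe sets had no overlap. UBP22, a ubiquitin protease gene whose product removes ubiquitin from histone H2B, had 75.6 and 85.8 in flc-3, against 79.1 and 58.6 in the wild type (0.24 ± 0.17). The genotypes overlapped, and the difference was between 0.02 and 0.45 as each array was left out. AT5G10830, a methyltransferase-like gene, had 81.2 and 71.7 in flc-3, against 64.1 and 66.1 in the wild type (0.23 ± 0.14). Its genotypes did not overlap, and it did not pass (limma adjusted p = 0.579).

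AT5G10920, the argininosuccinate lyase gene of arginine synthesis, had 152 and 171 in flc-3, against 172 and 172 in the wild type (-0.09 ± 0.11). The second flc-3 array was close to both wild-type arrays. AT5G10960, a CAF1-type mRNA deadenylase gene, had 852 and 903 in flc-3, against 849 and 914 in the wild type (-0.01 ± 0.12), with both flc-3 arrays inside the range of the wild type. AT5G10820, of the folate and biopterin transporter family, and AT5G11010 had differences of -0.03 and 0.11. AT5G10800 stayed at or below a signal of 4.42 and was not tested.

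No outermost member passed. Before FLC, at 33 to 29 places, AT5G09850, a gene with the TFIIS-type domain of Mediator subunits, had 164 and 177 in flc-3, against 190 and 185 in the wild type (-0.13 ± 0.11). Both flc-3 arrays were below both wild-type arrays, and the gene did not pass (limma adjusted p = 0.676). THO1, a subunit of the THO complex of mRNA export, had 56.4 and 54.6 in flc-3, against 53.1 and 55.8 in the wild type (0.03 ± 0.15). AT5G09880, an RNA-recognition-motif splicing factor gene, had a difference of 0.10. At 102 to 114 places after FLC, AT5G11230, of the nucleotide-sugar transporter family, had 0.14 and AT5G11240 had 0.06. There, 3 members lay below the filter, AT5G11130 and AT5G11220 with signals up to 17.7 and 5.68 and AT5G11250, a TIR-NBS-LRR resistance-type gene, between 27.1 and 31.6.

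A pair of members, 250433_at and 250434_at, is annotated to 5 histone H3.1 genes at once, among them the neighbours AT5G10390 and AT5G10400 of this stretch, so neither can be assigned to a single gene. The signal of 250433_at was 147 and 140 in flc-3, against 118 and 187 in the wild type (-0.05 ± 0.18). The wild-type arrays enclosed both flc-3 arrays, and leaving out wild type replicate 1 or 2 gave -0.37 or 0.28. The signal of 250434_at was 187 and 192 in flc-3, against 195 and 197 in the wild type (-0.05 ± 0.10). The probe sets gave the same mean difference while their wild-type replicates differed in spread.

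The 5 members with the highest signals, where background weighs least, were close to equal in the genotypes. Signals of different probe sets depend on their probes and are not compared as levels. AT5G10960 is described above, and the others have no gene in the annotation. The signal of 250458_s_at was 1357 and 1518 in flc-3, against 1446 and 1452 in the wild type (-0.01 ± 0.14). That of 250439_at was 972 and 1141 in flc-3, against 1084 and 1093 in the wild type (-0.05 ± 0.13). In both, the flc-3 arrays enclosed the wild-type arrays. The signal of 250409_at was 1117 and 1137 in flc-3, against 1068 and 1102 in the wild type (0.06 ± 0.13). That of 250440_at was 1068 and 1026 in flc-3, against 1056 and 1014 in the wild type (0.02 ± 0.12). These 4 had limma adjusted p of at least 0.909.

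By probe set number, the upper end of the block adjoins 250476_at. Of its 8 highest numbers, AT5G10120 rose, 250474_at and 250471_at had the differences of 0.37 and -0.45 given above, and AT5G10160 had 0.02. The signal of 250475_at was 358 and 323 in flc-3, against 346 and 474 in the wild type (-0.25 ± 0.15, limma adjusted p = 0.542), and without wild type replicate 2 the difference was -0.02. AT5G10130, AT5G10210 and 250473_at lay below the filter, the last with signals of at most 1.34. Just outside the block, 250476_at, which has no gene in the annotation, read 9.97 and 12.5 in flc-3, against 775 and 680 in the wild type (-5.90 ± 0.15), and 250477_at (AT5G10190, 5 places after FLC) read 55.9 and 54.2 in flc-3, against 60.3 and 52.3 in the wild type (-0.03 ± 0.16). By number, 250475_at thus did not pass, 250476_at had the largest difference of all tested probe sets, and 250477_at had no similar value. Probe set numbers do not follow gene order, and neither 250475_at nor 250476_at has an annotated place. No boundary on the chromosome can be read from these values.

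**Figure D3:**
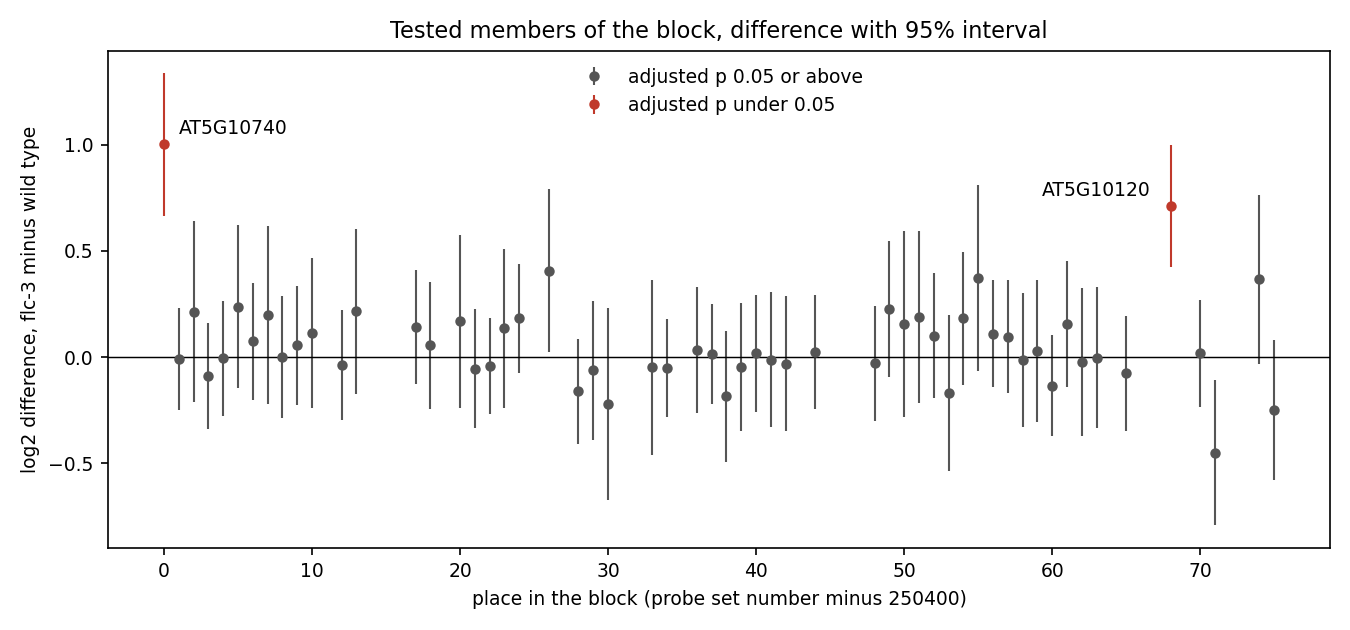
Log2 difference, flc-3 minus wild type, with its 95% interval from limma, for the 56 tested members against their place in the block (probe set number minus 250400). The intervals of AT5G10740 and AT5G10120 (red) lie well above 0, and those of 2 other members, 250426_at and 250471_at, also leave out 0 before adjustment.

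Across the tested members the median log2 difference was 0.02, with quartiles of -0.04 and 0.16, where the other 13592 tested probe sets had a median of -0.01 and quartiles of -0.14 and 0.12. Differences were above 0 for 32 of 56 members (57.1%), against 47.5% of all tested probe sets. In the fit with no filter, which holds all 76 members, the median was 0.00. An unadjusted p under 0.05 was reached by 4 members (7.14%), against 12.1% of all tested probe sets. The 2 not called are 250426_at and 250471_at.

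The signals of the genotypes did not overlap in 19 of 56 tested members (33.9%), against 43.0% of all tested probe sets. Of these 19, 14 were higher in flc-3 and 5 lower, that is 25.0% and 8.93% of the tested members, against 20.1% and 22.8% of all tested probe sets. The 5 lower ones were 250471_at, 250428_at, AT5G09850, AT5G10920 and 250434_at, and the signal of 250428_at was 456 and 406 in flc-3, against 495 and 468 in the wild type (-0.16 ± 0.11). Among the higher ones outside the 2 called, 250413_at had 46.6 and 44.1 in flc-3, against 42.8 and 35.4 in the wild type (0.21 ± 0.17).

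For 55 of the 56 tested members (98.2%), the 95% interval of the difference lay within 2-fold in either direction, against 97.1% of all tested probe sets. The exception was AT5G10740. The standard errors of the members ran from 0.10 to 0.20, with a median of 0.14 as over all tested probe sets. Replicate arrays of a genotype differed, in the median tested member, by 0.12 in flc-3 and 0.12 in the wild type on the log2 scale. The median absolute difference between the genotype means was 0.10, and since each mean averages 2 arrays this value cannot be set directly against a difference of single arrays.

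**Figure D4:**
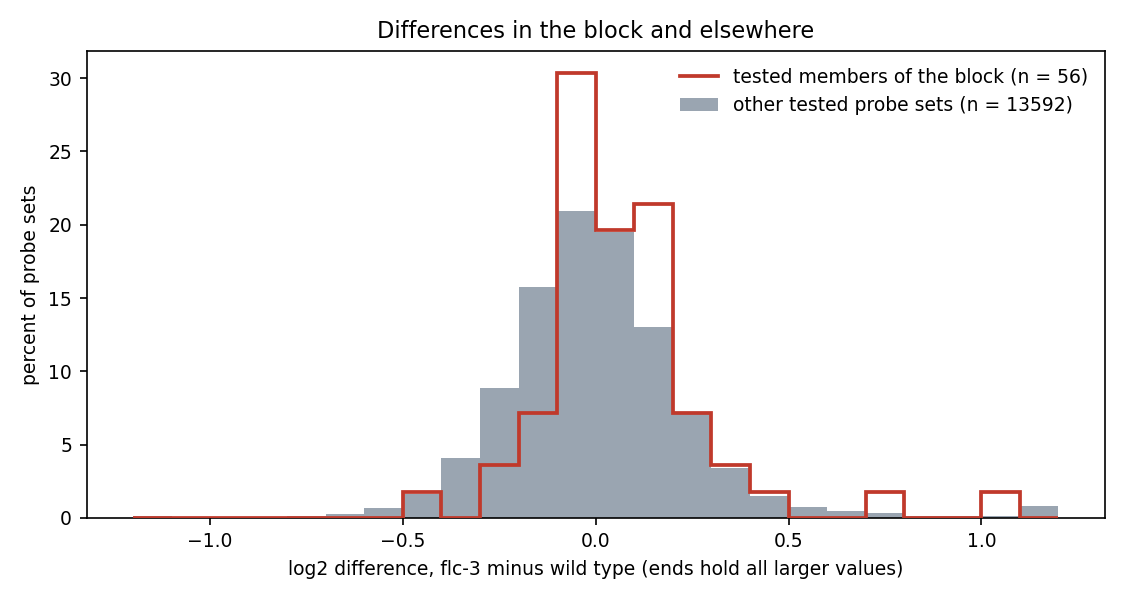
Percent of probe sets in bins of log2 difference, flc-3 minus wild type, for the 56 tested members (red outline) and the other 13592 tested probe sets (grey bars), with all larger differences gathered in the end bins. The members centre on 0 as the rest do, and the red steps to the right belong to AT5G10120 and AT5G10740.

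The remaining 21 tested members, none with a single annotated gene, had differences from -0.06 to 0.21 and limma adjusted p of at least 0.576, 13 above 0 and 8 below. A further 8 unnamed members lay below the filter, with mean signals from 2.29 to 23.6. Among them 250445_at had the largest value, 13.9 and 11.1 in flc-3, against 1.30 and 6.36 in the wild type (1.70 ± 0.58 in the fit with no filter, limma adjusted p = 0.408), at signals where a fold change is least certain.

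The lists by role were chosen with the calls known and hold few tested genes, so they cannot show a pattern by role. Over all tested probe sets, 1.69% passed. By the roles listed for this stretch, 1 of 5 transcription factor genes was annotated and tested, and it rose (AT5G10120). Of 7 genes for receptors, kinases, phosphatases and 14-3-3 proteins, 2 were annotated and tested, AT5G10740, which rose, and AT5G10290 outside the block, which did not pass. Of 11 genes of metabolism and transport, 2 were tested and neither passed, and of 4 genes listed under translation and RNA, 2 were tested and neither passed: AT5G10350, and AT5G10370 through a probe set outside the block that it shares with AT4G01020. The list of chromatin, histone and cell cycle genes had only the shared H3.1 probe sets, tested with no call. The list of annexin and arabinogalactan protein genes had 0 annotated members, and the FLC cluster list had 0 tested members. A list of 5 FLC relatives, which lie elsewhere in the genome and not in this stretch, also had 0 annotated members.

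Whole-array values set the frame for these differences. Array medians were 48.5 and 47.1 in flc-3 and 47.2 and 47.3 in the wild type, and log2 signals correlated over all probe sets at r = 0.968 to 0.974 between arrays of different genotype, 0.980 within flc-3 and 0.972 within the wild type. With so few arrays, every value has limited precision. The annotation used here assigns no probe set to FLC, so no value is named as that of FLC, and the labels were not checked by its level. Of the tissue markers, 3 of 6 shoot genes and 3 of 3 root genes were measured, with summed signals of 6648.5 to 8173 in flc-3 and 8226 to 8329 in the wild type for shoot, and 2841 to 3899 in flc-3 and 3182 to 3867 in the wild type for root. PYK10 makes up most of the root sum, and the other 2 root genes were higher in flc-3 without overlap and did not pass: EXPA7 had 54.5 and 57.9 in flc-3, against 30.7 and 38.6 in the wild type (log2 difference 0.69, limma adjusted p = 0.115), and EXPA18 had 63.2 and 76.5 in flc-3, against 57.2 and 52.2 in the wild type (0.34, limma adjusted p = 0.43). Of 7 seed genes, 2 were measured, with sums of 559 to 758 in flc-3 and 60.7 to 80.2 in the wild type. Both passed, higher in flc-3: PAP85 (log2 difference 3.44, limma adjusted p = 2.8e-05) and OLEO3 (2.29, limma adjusted p = 0.00062). The difference of PAP85 was the highest of all tested probe sets. PYK10 (-0.09) and the 3 measured shoot genes, RCA (-0.15), LHCB4.1 (-0.15) and LHCB4.2 (-0.20), had differences below 0 and did not pass. Whether these marker differences have a part in the rises of the 2 called members was not tested. In whole seedlings, a change in the number of cells of a type and a change in RNA per cell cannot be told apart.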

How the data were processed

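Transcripts were measured on 4 ATH1 arrays, 2 of flc-3 and 2 of the wild type, by labelled genotype. The authors deposited linear signal intensities, which MAS5 made per the submitters' processing notes (its version: not given in the sources used). With 2% trimmed from both ends, every array had a mean of 100.01, and no normalization was added. Detection calls were not used here. From 22810 probe sets, 64 controls were left out. Values were transformed as log2(signal + 1), a scale that shrinks differences at low signal, and only the 13648 probe sets at or above the 40th percentile of the mean log2 value were tested.

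Genotype was the only term in limma 3.58.1 (R 4.3.3, lmFit, eBayes with trend, 7.66 prior and 2 residual degrees of freedom), two-sided, with Benjamini-Hochberg adjustment over all 13648 and a threshold of 0.05. The step was run on simulated data with known rises. No requirement was set there for recovering rises as small as those of the called members. The p-values reflect only the spread of these arrays, possibly technical. Members below the filter were read from the fit with no filter.

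Loci come from a platform annotation, through gene identifiers in the TAIR10.1 gene table. The block, the gene lists and the tests were chosen with earlier results of these data known. A rule gave 30 members to name: those called, the 8 largest differences in each direction, the 5 brightest, the 8 highest numbers and listed genes. A further 17, the other members with a single locus, were named for their place in gene order, and 250445_at after its value was seen. Alternatives were 3 other normalizations, pseudocounts of 16 and 0.1, other filters, robust eBayes, eBayes without trend, a block for replicate number, plain suffixes only, and each array left out.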

Additional observations from a re-analysis of the deposited data

How the results depend on the processing

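The count of 2 called members was 2 under quantile, cyclic loess and median normalization, pseudocounts of 16 and 0.1, robust eBayes, plain suffixes and a filter on the mean linear signal, the last chosen after seeing the data. It was 1 with no filter, 1 with a filter at the 60th percentile, where AT5G10740 was not tested, and 1 without the intensity trend. As each array was left out it ran from 0 to 2, with 0 without flc-3 replicate 1 and 1 without flc-3 replicate 2. The median difference of the tested members stayed between -0.01 and 0.05 under every alternative run. The 19 members without overlap were 12 with the stricter filter, where 39 members were tested, and 34 to 40 as each array was left out, since fewer arrays overlap less. Over all probe sets, 230 calls became 121 with no filter, 149 with the stricter filter, and 147 to 364 as each array was left out, lowest without flc-3 replicate 1 and highest when wild type replicate 1 was dropped. Uncalled differences near 0 changed sign: AT5G10780 was 0.014 under cyclic loess, AT5G10960 was 0.021 under quantile and 0.038 under cyclic loess, 250439_at was 0.0018 under cyclic loess, and 250458_s_at was 0.012 under quantile and 0.043 under cyclic loess. With 1 array left out, uncalled differences that crossed 0 ran from -0.083 to 0.067 for AT5G10780, -0.059 to 0.048 for AT5G10960, -0.0060 to 0.12 for AT5G11240, -0.51 to 0.071 for AT5G10460, -0.37 to 0.28 for 250433_at, -0.14 to 0.20 for AT5G10350, -0.37 to 0.00028 for AT5G10580, -0.16 to 0.069 for 250439_at, -0.012 to 0.047 for 250440_at, -0.079 to 0.13 for AT5G10560, -0.085 to 0.026 for AT5G10820, -0.017 to 0.21 for AT5G09880, -0.094 to 0.067 for 250458_s_at, -0.0075 to 0.064 for THO1 and -0.094 to 0.13 for AT5G10160. The replicate number as a block gave 2 called members and 769 calls over all probe sets. Same-numbered deviations correlated at 0.0913, which with 2 arrays per genotype cannot settle whether the numbers pair the arrays. The numbers were not taken to pair them, and that fit's p-values were not used. The cause of the lost calls was not tested. The number of arrays and dim signals limit every value.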
